A study of Homo sapiens with 4 samples.

Results

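The DOCK genes encode exchange factors that switch on small GTPases, and 7 of them, DOCK1, DOCK2, DOCK4, DOCK5, DOCK8, DOCK10 and DOCK11, were followed in the open chromatin of HL-60 cells with and without retinoic acid. They were 7 of 20162 protein-coding genes. The family was selected on measured values, because the peak that ranked highest among those found in both ATRA libraries and in neither control library lay in DOCK5. All values below come from that same contrast and are descriptions, so no difference between the groups was tested. A locus was the gene body with 50 kb on either side, and the 7 loci held 108 of the 78063 regions obtained by merging peaks of the 4 lists that shared at least 1 bp. HL-60 is a human myeloid leukemia line that matures towards granulocytes in all-trans retinoic acid (ATRA). One group was given ATRA at 1 µM over 4 days, and the control group was given ethanol, the solvent of ATRA, over the same period. Each group had 2 independent biological replicates, and neither carried a genetic change. Accessibility was read by ATAC-seq, which uses the Tn5 transposase to insert adapters where DNA is exposed. The data came from the whole population of a single line, so cells at different stages of maturation cannot be told apart.

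DOCK proteins (dedicators of cytokinesis) load GTP onto Rac or Cdc42 through a catalytic domain unlike that of other exchange factors. Active Rac drives branched actin at the leading edge and, in phagocytes, assembly of the NADPH oxidase, so a maturing granulocyte depends on it for migration and killing. DOCK1, DOCK2 and DOCK5 act on Rac together with an ELMO partner, and DOCK4 also acts on Rac. DOCK8 and DOCK11 act mainly on Cdc42, and DOCK10 acts on Cdc42 and Rac.

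The 2 ATRA lists held 43494 and 63541 peaks, replicate 1 first, and the 2 control lists 42081 and 45903. ATRA replicate 2 stood apart, with a median peak width of 416 bp against 291 to 328 bp in the others, and the read depth behind each list was unknown. Levels are given as score percentiles, where 100 is the highest peak caller score within that library's own list, and a region takes its best peak. Percentiles still depend on the length of a list. Of all regions in all 4 lists, 29.2% had both ATRA percentiles above both control ones and 12.8% both below. With lists of equal length the shares were 22.6% and 20.9%. The myeloid markers had a promoter peak for 6 and 7 of 10 genes in the ATRA lists and 7 and 6 in the control lists. The granule genes among them differed. ELANE and AZU1 had none in any library, MPO had a promoter peak in replicate 2 of each group, and CTSG and LYZ had one in all 4 libraries. The maturation markers had a promoter peak for 3 of 6 genes in each ATRA list and 2 in each control list, with ITGAX, an integrin of mature myeloid cells, in the ATRA lists alone, and CYBB, FPR1 and CD38 in no list. The markers of other lineages CD3E, CD3D, MS4A1, HBB, ALB and EPCAM had no promoter peak in any list.

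A region is called ATRA-only where both ATRA libraries and no control library had a peak, and control-only in the reverse case. The sequences below are the centres of such regions, the one with the highest mean percentile at each of DOCK4, DOCK10, DOCK11 and DOCK2, and show the DNA behind the presence calls. DOCK1 and DOCK8 had no such region. Each is 200 bases of the hg19 (GRCh37) plus strand, all of it intronic, at chr7:111649289-111649488 for DOCK4, chr2:225791306-225791505 for DOCK10, chrX:117764933-117765132 for DOCK11 and chr5:169232684-169232883 for DOCK2. Capitals mark matches on either strand to the motifs searched. The motif of PU.1 was GAGGAA, that of the CEBP family TTGCNNAA, that of RUNX factors AACCAC and that of the dimer AP-1 TGANTCA. For GATA factors it was AGATAA, with TGATAA also allowed, and for retinoid receptors it was 1 copy of their repeat, AGGTCA, with GGGTCA also allowed. The CTCF consensus was searched as well, and motifs were free to overlap.
DOCK4, ATRA-only: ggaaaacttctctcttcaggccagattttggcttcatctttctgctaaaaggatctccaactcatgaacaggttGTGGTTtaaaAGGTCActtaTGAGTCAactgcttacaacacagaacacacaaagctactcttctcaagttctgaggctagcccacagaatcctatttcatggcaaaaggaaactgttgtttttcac
DOCK10, ATRA-only: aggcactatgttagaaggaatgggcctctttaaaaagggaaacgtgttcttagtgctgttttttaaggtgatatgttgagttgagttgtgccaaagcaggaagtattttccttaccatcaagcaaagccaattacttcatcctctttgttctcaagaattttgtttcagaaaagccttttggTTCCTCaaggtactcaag
DOCK11, ATRA-only: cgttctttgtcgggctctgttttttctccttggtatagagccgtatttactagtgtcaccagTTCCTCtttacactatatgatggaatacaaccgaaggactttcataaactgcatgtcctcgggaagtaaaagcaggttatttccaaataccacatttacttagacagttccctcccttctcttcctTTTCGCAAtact
DOCK2, control-only: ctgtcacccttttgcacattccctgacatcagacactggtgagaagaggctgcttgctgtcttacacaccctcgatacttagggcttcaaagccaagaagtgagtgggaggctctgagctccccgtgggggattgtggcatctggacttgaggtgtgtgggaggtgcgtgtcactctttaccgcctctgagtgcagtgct
The DOCK4 window held a RUNX match, a retinoid receptor match and an AP-1 match within a short stretch, in that order. The DOCK10 window held a PU.1 match, the DOCK11 window held a PU.1 and a CEBP match, and the DOCK2 window held none of the motifs.

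Across the 7 loci, the shares of ATRA-only and control-only regions lay near those of all regions when whole lists were used. ATRA-only regions numbered 9 of 108, or 8.33%, against 8.94% of all regions. Control-only regions numbered 3, or 2.78%, against 3.37% of all regions. Under the wider rule, in which a region counts for a group when both its libraries have it and the other group's do not both have it, 19 regions (17.6%) were ATRA-specific against 17.9% of all regions. By the same rule 15 (13.9%) were control-specific against 9.53% of all regions. Of these, 12 lacked a peak in ATRA replicate 1 alone, as did 4309 of the 7438 control-specific regions over all lists. Without ATRA replicate 1 these 12 leave the class by construction, and the share was 2.86% against 4.15% of all regions. Among the higher scoring 0.5 of each list it was 6.06% against 10.2%, below the background. It stayed above with lists of equal length (19.8% against 12.6%), with 200 bp peaks (14.4% against 10.3%) and without ATRA replicate 2 (16.5% against 10.9%). Without control replicate 2 it was 18.3% against 18.6%, so its side of the background depended on the setting. A share near that of all regions is not a result about these genes. Regions in all 4 libraries numbered 36 (33.3%), against 30.3% of all regions. In 29 regions the peak came from 1 library alone, and 18 of these were from ATRA replicate 2. Over all 78063 regions, 14925 were from ATRA replicate 2 alone and 2957 from ATRA replicate 1 alone. The numbers were 3661 for control replicate 1 and 4547 for control replicate 2, so most single-library regions came from ATRA replicate 2 there too. Of the 9 ATRA-only regions, 7 lay in introns, 1 over an exon and 1 downstream of the gene, and the 3 control-only regions were all intronic.

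By gene, at least 1 ATRA-only region was found at 4 of the 7 loci, DOCK4, DOCK5, DOCK10 and DOCK11, against 42.4% of protein-coding loci with a region. At least 1 control-only region was found at 3 loci, DOCK2, DOCK5 and DOCK10, against 17.1% of such loci. The member genes are long, with 190 to 657 kb of gene body against a median of 28.1 kb, and the part of length in these counts was not tested. The counts also moved with the lists. Without ATRA replicate 2, 17 of 97 member regions (17.5%) were ATRA-only against 16.0% of all regions under the same rule. In that setting 16 (16.5%) were control-only against 10.9% of all regions. With the 42081 highest scoring peaks of each library, 7 of 96 member regions (7.29%) were ATRA-only against 7.15% of all regions. There 5 of the 96 were control-only against 6.04% of all regions. Among the higher scoring 0.5 of each list, 11 of 66 regions (16.7%) were ATRA-only against 9.37% of all regions, and 2 of the 9 were kept.

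**Figure D1:**
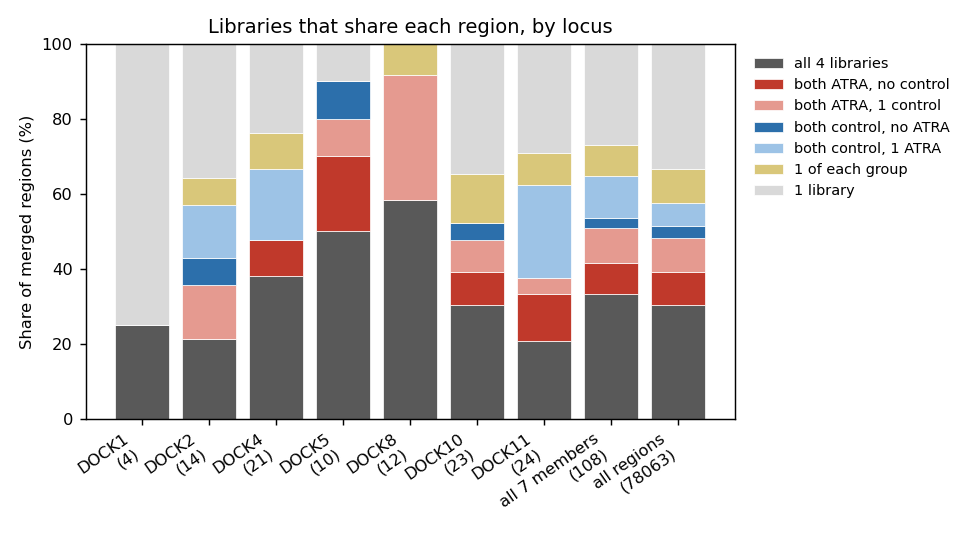
Share of merged regions (percent, stacked to 100) by the libraries that had a peak there, for each locus, the 7 loci together and all regions, with the number of regions under each bar. DOCK8 had no region from a single library, and DOCK1 had 3 of 4 from a single library. The bar of all 7 loci had 33.3% in all 4 libraries, against 30.3% in the bar of all regions. Regions of both control libraries but not both ATRA libraries made up 13.9% against 9.53%.

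The loci held 66 and 93 peaks after ATRA and 63 and 73 in control, replicate 1 first. Relative to the length of each list this was 15.2, 14.6, 15.0 and 15.9 peaks per 10000, so the libraries overlapped, with means of 14.9 ± 0.38 (SD, n = 2) after ATRA and 15.4 ± 0.66 (SD, n = 2) in control. Peaks covered 27650 and 52155 bp after ATRA and 24700 and 25927 bp in control, and the large value was that of ATRA replicate 2. The density was 3.34 regions per 100 kb, against 2.52 over the 24 chromosomes. The latter was taken over whole chromosome lengths, stretches without genes included, so the values are not alike. At the members the density ran from 0.53 at DOCK1 through 2.56 at DOCK2, 3.00 at DOCK5, 3.42 at DOCK8, 3.62 at DOCK4 and 6.09 at DOCK10 to 8.27 at DOCK11. The DOCK11 gene is the shortest.

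DOCK5, a Rac activator of myeloid cells and osteoclasts, spans chr8:25042204-25275598. Its leading region, chr8:25202793-25203354, lay 160.9 kb downstream of the start site over exon 26 of the canonical transcript. The percentile there was 96.5 in ATRA replicate 1 and 98.7 in ATRA replicate 2, a mean of 97.6 ± 1.49 (SD, n = 2), and neither control list had a peak. The peaks were 562 and 538 bp wide. This was the value that chose the family, and it stood first of 6976 ATRA-only regions, whose median was 37.5. The second, at 95.7, lay in no gene, 260 kb from the nearest start site, that of RUNX2, and the third, at 95.4, lay near HLX, a homeobox gene. The genes most like DOCK5 in holding such a region within the body were RAB31, a vesicle trafficking GTPase, at 93.2, HIPK2, a nuclear kinase, at 92.5, SLC25A13, a mitochondrial carrier, at 92.0, DAB1, a Reelin adaptor, at 91.8 and POR, the electron donor of cytochromes P450, at 91.7, each a mean over the 2 ATRA libraries. The DOCK5 region was still first with lists of equal length, but seventh when all peaks were set to 200 bp.

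The other DOCK5 regions included an ATRA-only and a control-only one. Of its 5 regions in all libraries, 2 had both ATRA percentiles higher and 0 had both lower, against 29.2% and 12.8% of all such regions. In intron 1, chr8:25092155-25092977 was ATRA-only at 45.6 and 73.5, place 1173 among ATRA-only regions. Also in intron 1, chr8:25059082-25059415 was control-only at 61.3 and 26.2. Between the start site and that region, chr8:25056188-25056938 stood at 91.0 and 89.4 after ATRA and 49.7 in control replicate 1, with no peak in control replicate 2. The promoter region, chr8:25041979-25043700, had percentiles of 51.0 and 73.8 after ATRA and 40.6 and 12.0 in control, so that the groups did not overlap. Its peaks covered 1044 and 1219 bp after ATRA and 613 and 246 bp in control. Both ATRA widths exceeded both control widths at 41.7% of member regions in all libraries, against 37.1% of all such regions. At intron 2 and exon 2, chr8:25100896-25101692 had 87.1 and 84.8 against 82.9 and 77.3, again without overlap. The highest region in all 4 libraries lay downstream at the promoters of KCTD9 and CDCA2, with 99.9 and 100.0 after ATRA and 99.9 and 99.9 in control.

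**Figure D2:**
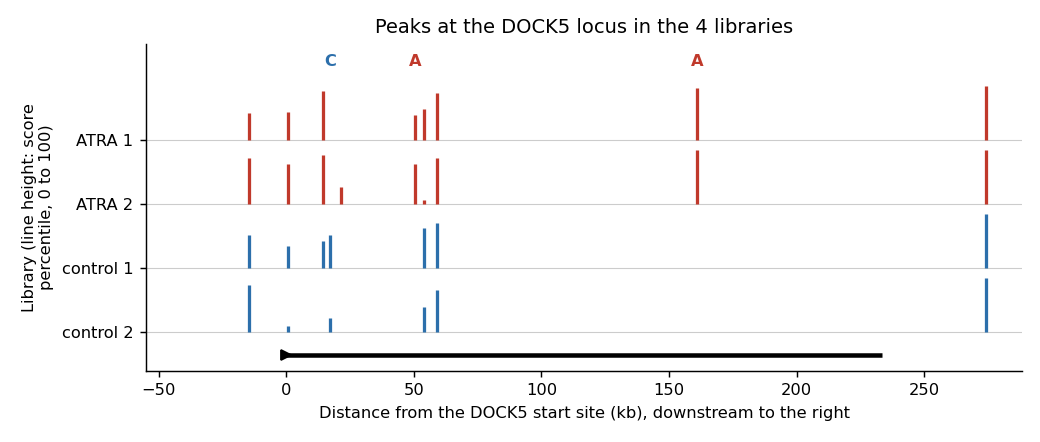
Peaks at the DOCK5 locus in each library by distance from the start site (kb, the black bar is the gene body), with line height giving the score percentile from 0 to 100, ATRA libraries in red and control libraries in blue. A marks the 2 ATRA-only regions and C the control-only region, and the leading region 160.9 kb downstream reaches 96.5 and 98.7 in the ATRA libraries with no peak in either control.

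DOCK2, the main Rac activator of lymphocytes and neutrophils in chemotaxis, spans chr5:169064272-169510386. Its promoter region, chr5:169063833-169065463, stood at 72.6 and 88.7 after ATRA and at 93.3 and 96.4 in control, so both ATRA values were below both control values. The covered widths followed, with 904 and 1270 bp against 1416 and 1495 bp. In intron 26, the region with the highest mean, chr5:169260694-169261973, went the other way, with 99.4 and 99.8 against 92.7 and 96.2. The control-only region, chr5:169232531-169233035, whose centre is printed above, lay in the same intron with 7.5 and 78.3, a spread far wider than at the promoter. DOCK2 had 14 regions, none of them ATRA-only.

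DOCK1, the founding member and a partner of ELMO in the uptake of dying cells, spans chr10:128593978-129250781 and had the fewest regions. It had no promoter region and 4 regions in all, 3 of them from a single library. The region in all 4 libraries, chr10:129242443-129242934, lay over exon 50 at 4.5 and 47.1 after ATRA and 47.0 and 74.1 in control, with ATRA replicate 2 just above control replicate 1.

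DOCK4, a regulator of Rac in cell spreading and Wnt signalling, spans chr7:111366166-111846462 on the minus strand. Its promoter region, chr7:111844947-111847404, which also covers the start of ZNF277, had the highest mean of the locus in all 4 libraries, with 97.7 and 98.2 after ATRA and 99.0 and 99.4 in control. Both ATRA values were lower, with a mean difference of -1.25 percentile points and widths of 893 and 2458 bp against 1309 and 798 bp. Both ATRA-only regions lay in intron 1 and were modest, with 53.6 and 43.3 at chr7:111649180-111649596, whose centre is printed above, and 5.2 and 25.9 at chr7:111720493-111720907. Nearer the start site, neighbouring regions of intron 1 moved apart. The region chr7:111799320-111799943 had 68.6 and 82.9 against 27.2 and 27.1 in control, whereas chr7:111797064-111797534 had 54.3 and 30.5 against 79.8 and 78.6.

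DOCK8, a Cdc42 activator whose loss causes an immunodeficiency, spans chr9:214854-465259 and had no region confined to either group's 2 libraries. Its start site region, chr9:214656-215586, stood at 85.6 and 64.9 after ATRA and at 44.5 and 45.3 in control, without overlap. A promoter of shorter transcripts, chr9:272199-273348, had 78.0 and 86.4 against 79.7 and 90.1, which overlapped. The region in all libraries with the highest mean lay upstream at the promoter of ZNG1A, with 96.2 and 97.4 against 90.9 and 94.5. No region at DOCK8 was control-specific and 4 of 12 were ATRA-specific, against 9.53% and 17.9% of all regions. Among the 4 was chr9:504042-504859, in the flank at a promoter of KANK1. Each of the 4 had a peak in 1 control library as well.

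DOCK10, an activator of Cdc42 and Rac that interleukin-4 induces in B cells, spans chr2:225629807-225907185 on the minus strand. An internal promoter 95.4 kb downstream of the outermost start, chr2:225811589-225812028, had 27.1 and 10.8 after ATRA and 71.6 and 68.6 in control, and the mean difference of -51.2 points was the largest fall among the 36 member regions in all libraries. No region covered the promoter window of the outermost start, and the nearest, 0.9 kb inside the gene, had a peak in ATRA replicate 2 at 64.3 and in control replicate 2 at 46.6. Upstream of the internal promoter, chr2:225817818-225818431 had 91.8 and 93.5 against 81.0 and 85.9, the highest mean of the locus. The ATRA-only regions were chr2:225791016-225791795 in intron 2, with 46.4 and 65.3, and chr2:225741279-225741655 in intron 7, with 30.4 and 38.7. The control-only region, chr2:225873636-225873967 in intron 1, had 43.3 and 58.9.

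DOCK11, a Cdc42 activator of blood cells, spans chrX:117629778-117820126. Its promoter region, chrX:117629193-117629908, had the highest mean among the regions of the locus in all libraries, with 77.4 and 88.8 after ATRA and 77.2 and 75.6 in control. The values of ATRA replicate 1 and control replicate 1 almost met. Of its 5 regions in all 4 libraries, 4 had both ATRA values above both control values, against 29.2% of all such regions. The largest difference of any member lay in intron 1 at chrX:117661887-117662716, with 55.4 and 84.9 against 21.2 and 12.0, a mean difference of 53.5 points and widths of 539 and 794 bp against 234 and 244 bp. Such wider peaks in both ATRA libraries were found at 37.1% of all regions in all libraries. In the other direction, chrX:117720159-117720653 in intron 16 had 65.2 and 54.2 against 87.2 and 76.9. The ATRA-only regions were chrX:117764856-117765208 in intron 35, with 61.2 and 65.1, chrX:117735532-117735883 in intron 23, with 37.1 and 17.3, and chrX:117852056-117852452 downstream of the gene, with 55.7 and 19.2. At 6 of the 24 regions the peak was missing from ATRA replicate 1 alone. These made up all the control-specific regions of the locus, a class that held 9.53% of all regions.

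**Figure D3:**
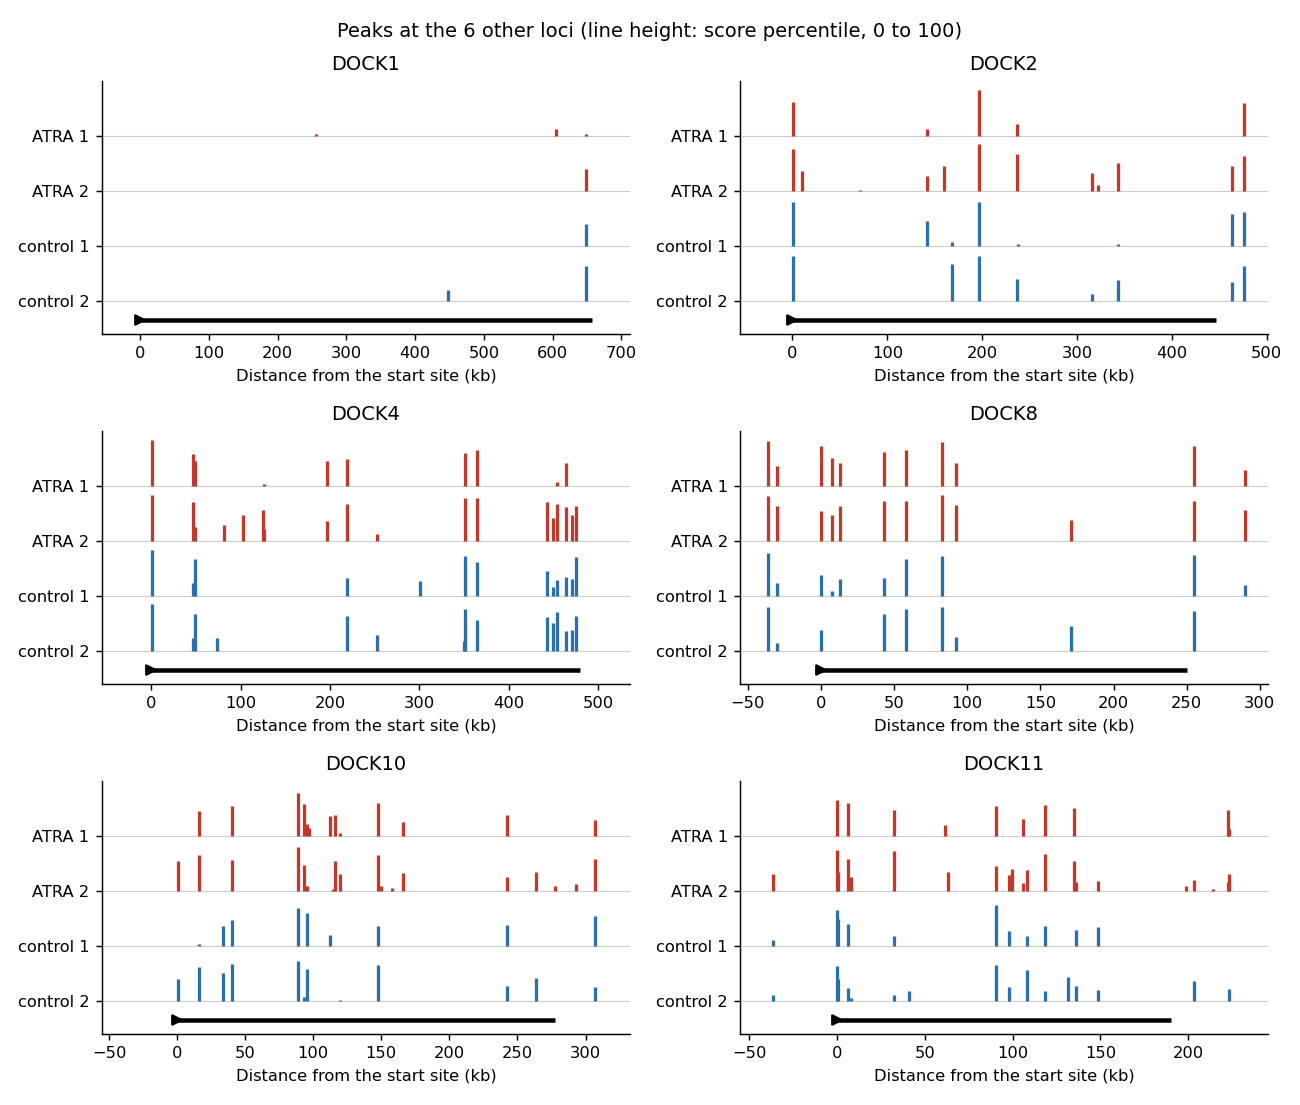
Peaks at the DOCK1, DOCK2, DOCK4, DOCK8, DOCK10 and DOCK11 loci in each library by distance from the start site (kb, the black bar is the gene body), with line height giving the score percentile from 0 to 100, ATRA libraries in red and control libraries in blue. DOCK1 is nearly empty with 4 regions, and DOCK10 and DOCK11 are the most densely filled with 23 and 24.

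Among the 36 regions in all libraries, 14 had both ATRA percentiles above both control percentiles, or 38.9%, against 29.2% of all such regions. In 5 both were below, or 13.9%, against 12.8% of all such regions. The remaining 17 overlapped. The shares of all regions moved with list length. With lists of equal length, 22.6% of all regions in all libraries were higher and 20.9% lower, and at the members 13 of 32 (40.6%) were higher and 6 lower. Of the 14 higher and 5 lower member regions, 12 and 3 were kept there. The higher regions were spread over 6 genes and differed by 4.11 to 53.5 percentile points. The median difference was 4.63 points at the members and 2.83 over all 23653 regions in all libraries. These are signed differences over a set of regions. For a single region, the median absolute difference between replicates was 9.86 points after ATRA and 11.1 in control over the same 23653 regions. Promoter regions of the members went both ways, with 3 higher (DOCK5, DOCK8 and DOCK11), 3 lower (DOCK2, DOCK4 and the internal promoter of DOCK10) and 1 overlapping.

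**Figure D4:**
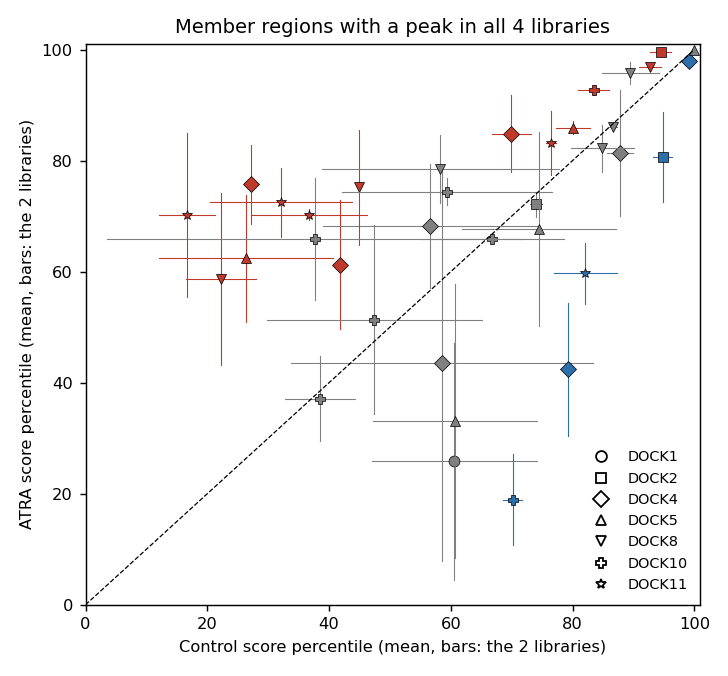
Mean score percentile after ATRA (y axis, 0 to 100) against control (x axis, 0 to 100) for the 36 member regions with a peak in all 4 libraries, with bars from the lower to the higher library, symbols by gene and the dashed line at equal values. The 14 red points have both ATRA values above both control values, the 5 blue points the reverse, and the 17 grey points overlap.

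Motif matches in the central 200 bp were counted in member regions and in all regions of the same length. PU.1, the master factor of myeloid cells, matched in 34.3% of the 108 member regions and 34.6% of all regions, and CEBP, a granulocyte factor family, in 15.7% and 12.3%. The retinoid receptor motif matched in 20.4% and 18.0%, RUNX in 19.4% and 16.7%, and GATA in 14.8% and 18.8%. AP-1 matched in 4.63% and 8.33%, and CTCF in 1.85% and 5.88%, which at the members was 5 and 2 regions. These shares were not tested. Of the 9 ATRA-only regions, 4 had PU.1, 3 the retinoid receptor motif, 2 CEBP, 2 AP-1, 1 RUNX and 0 GATA or CTCF. Over all ATRA-only regions the shares were 46.6% for PU.1, 22.8% for the retinoid receptor motif, 15.3% for CEBP, 10.9% for AP-1, 21.1% for RUNX, 14.4% for GATA and 3.18% for CTCF. The leading DOCK5 region had an AP-1 match and no other, and among the 3 control-only regions the DOCK10 one had a retinoid receptor match. A match is a description of letters, not of binding.

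The wider pathway comprised 43 genes, which were other DOCK genes, DOCK partners, GTPases, other exchange factors, inhibitors and effectors, and every one had a region. Their loci held 525 distinct regions, of which 70 (13.3%) were ATRA-only and 12 (2.29%) control-only, against the 8.94% and 3.37% of all regions given above. At least 1 ATRA-only region was found at 32 of the 43 genes and at least 1 control-only region at 11, against the 42.4% and 17.1% of all loci. These genes ran from 2.53 to 709 kb, and the part of length in these counts was not tested. The alternative settings were not run for the pathway genes. Of 170 regions in all libraries, 56 (32.9%) had both ATRA values higher and 20 (11.8%) both lower, against 29.2% and 12.8% of all such regions. By role, ATRA-only regions made up 15.1% of regions at other exchange factors, 17.6% at the other DOCK genes, 13.2% at DOCK partners, 13.1% at effectors, 12.2% at inhibitors and 6.67% at the GTPases themselves, whose promoters had a peak in all 4 libraries for 5 of 5 genes.

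The pathway gene with the highest ATRA-only region was CHN2, a Rac GTPase-activating protein, at 84.2 and 82.9 in the 2 ATRA libraries. It was followed by WIPF1, a partner of the actin regulator WASP, at 77.7 and 85.2, and VAV3, another Rac exchange factor, at 79.3 and 62.6. ELMO1, the partner of DOCK2 and DOCK5, had 58.4 and 80.5 at its highest of 6 such regions. ABI1, a subunit of the WAVE actin complex, had 73.8 and 63.6, and DOCK9, a Cdc42 activator, had 45.1 and 83.7. TIAM2, a Rac exchange factor, had 49.2 and 78.5, and NCF1, the p47 subunit of the NADPH oxidase, had 51.1 and 73.1 in its flank. NCF1 has near-identical pseudogene copies, so the mapping of reads there is uncertain. The highest control-only regions were those of BRK1, another WAVE subunit, at 83.3 and 87.1 in the 2 control libraries and outside the gene body, LRCH1, a regulator of DOCK8, at 78.0 and 87.4, TIAM2 at 69.9 and 67.1, and RAC2, the Rac of blood cells, at 77.5 and 23.3 in its flank.

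The 50 kb border set which regions were counted. The nearest region inside lay 8430 bp from the border at DOCK5 and was the KCTD9 and CDCA2 region described above. The nearest outside lay 2796 bp beyond the border at DOCK2, at chr5:169010358-169011476, with 89.6 and 86.4 after ATRA and 85.6 and 69.7 in control.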

How the data were processed

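ATAC-seq peak lists of 2 ATRA and 2 control libraries of HL-60 cells were used, grouped by sample title. Per the labels and methods, the authors trimmed adapters, aligned reads to hg19 and called peaks with MACS2 for each library separately. A Tn5 shift, duplicate removal and blacklist are not given in the sources used here, so peak edges may be displaced and repeats may be included. The deposited score, from 50 to a ceiling of 3100, is the peak caller's value on an unstated scale, and only its rank within a list was used. The deposited coordinates were converted to 1-based positions. Lists hold no counts, so depth is unknown and longer lists can give more and wider peaks. Each library is an independent culture.

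Genes came from GENCODE release 44 lifted to GRCh37. A promoter ran from 1 kb upstream to 100 bp downstream of a start of a protein-coding transcript. Peaks were merged at 1 bp of overlap. Work used Python 3.11.15, pandas 2.3.3, numpy 2.4.6, pysam 0.24.0, samtools 1.23.1 and matplotlib 3.10.9, and the class rules were tested on simulated data. The members and lists were chosen with earlier results of these data known. Regions named were each member's promoter, group-only regions and the shared region with the highest mean, and others were named after their values were seen. Pathway genes named were the 8 with the highest ATRA-only and the 4 with the highest control-only region, and the 5 genes most like DOCK5 were those with the highest ATRA-only region in the body. No test was run, since 2 libraries a group cannot reach significance in an exact permutation test. Alternatives were lists of equal length, the upper scoring part of each list, 200 bp peaks, overlap of the larger part of the shorter peak, the study's order of steps, other flanks and leaving out each library. Some markers of the list of other lineages are not reported here.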

Additional observations from a re-analysis of the deposited data

How the results depend on the processing

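No paired analysis was made, since no result came from a test and no fit could take the replicate number as a block. Whether libraries of the same replicate number were handled together is not stated. Over all regions, 4042 had peaks in replicate 2 of each group alone, against 1970 in ATRA replicate 2 and control replicate 1 alone. The cause was not tested. Merging only peaks that overlap by at least 0.5 of the shorter one, the study's order of steps and the gene body alone moved none of the counts by over 1.5 times. With lists of equal length, control-only regions numbered 5 of 96 in place of 3 of 108, against 6.04% of all regions. With a flank of 100 kb they numbered 5 of 125, against 3.37% of all regions. With peaks set to 200 bp, the DOCK5 region stood in place 7. There 3 of the 33 regions in all lists were lower, against 12.9% of all such regions. In the 0.5 of each list with the highest scores, 1 region was control-only, 4 were control-specific, 17 were in all lists, 6 were higher and 3 lower, and the DOCK5 region stood in place 4. Fewer peaks enter this setting, so fewer regions can be shared. The cause of the other moves was not tested.

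Leaving out each library in turn, ATRA-only regions ranged from 14 to 27, ATRA-specific from 14 to 44, control-only from 3 to 16, control-specific from 3 to 27, higher regions from 15 to 27, lower from 8 to 13, and the place of the DOCK5 region from 1 to 3. A single library then stands for its group, so more regions can qualify by construction. Shares of all regions under the same rule moved as well and are given second. Without ATRA replicate 1 there were 27 ATRA-only (25.7% against 29.2%) and 44 ATRA-specific regions (41.9% against 46.5%). The 3 control-specific ones made up 2.86% against 4.15%. Without ATRA replicate 2 there were 17 ATRA-only (17.5% against 16.0%) and 16 control-only regions (16.5% against 10.9%). Without control replicate 1 there were 14 ATRA-only (13.2% against 13.7%) and 27 control-specific regions (25.5% against 22.1%). There 7 of 106 were control-only, against 9.74%. Without control replicate 2 there were 14 ATRA-only regions (13.5% against 14.6%), and 6 of 104 were control-only, against 8.61%. In that setting 24 of the regions in all libraries (58.5%) were higher, against 47.1% of all such regions. Unknown depth, 2 libraries a group and a score known only by rank limit every value, and the absence of a peak is not the absence of accessibility.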
